A study of Danio rerio with 15 samples.

Results

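Mitochondrial ribosomal proteins are the genes of the deposited table whose symbol starts with mrpl or mrps followed by a digit. The rule finds 73 of 15937 genes, 45 with a large subunit symbol (mrpl) and 28 with a small subunit symbol (mrps). They were followed across 15 RNA-seq libraries of neutrophils sorted from zebrafish embryos by the mpx:GFP reporter, in which the promoter of the myeloperoxidase gene drives green fluorescent protein. There were 5 groups of 3 libraries: wildtype, tet2-/-, tet3-/- and double mutant (tet2/3DM) embryos at 2 days post fertilization (dpf), and wildtype embryos at 1.5 dpf, which the labels also give as 35 hours. All 5 groups were sorted on the same reporter, and the labels name neither the alleles nor the number of embryos or clutches behind a library. Tet2 and Tet3 are enzymes that oxidise 5-methylcytosine in DNA.

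The mitochondrial ribosome sits in the matrix at the inner membrane and makes the few respiratory chain and ATP synthase subunits that mitochondrial DNA encodes. Its ribosomal RNAs come from mitochondrial DNA, whereas all of its proteins are encoded in the nucleus, made in the cytosol and imported. Some members descend from bacterial ribosomal proteins and others were added in the mitochondrial lineage. Neutrophils are known for relying largely on glycolysis, with few respiring mitochondria. By symbol, mrps30 and mrps18a count here as small subunit genes although their mammalian products sit in the large subunit, and the mammalian product of mrps36 belongs to the oxoglutarate dehydrogenase complex. The symbols MRPL49, MRPL55 and MRPS12 are written in upper case in the table and are outside the rule.

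No member passed the main test, by limma, in any mutant group against wildtype, where 0.1% of all genes tested passed in tet2-/-, 7.27% in tet3-/- and 8.68% in the double mutants. Under some other ways of processing a few members did pass, among them mrps7 in tet3-/- and mrps27 in the double mutants. At 1.5 dpf 1 member, mrps15, was higher than at 2 dpf, where 20.8% of all genes passed, and that call is lost under most of the other ways of processing tried on it. The members did differ between libraries of the same group, and they did so together, most of all among the double mutants. The values below are normalised read counts, that is, reads divided by the authors' size factor for each library. They are not divided by transcript length, so the order of genes by value does not rank the amounts of their mRNAs. A change is a log2 difference of log2(value + 1) from limma fitted to all 15 libraries, and p-values are adjusted by the Benjamini-Hochberg method over 15933 genes. Since the labels do not tie libraries to separate sorts, they reflect only library-to-library spread, part of which may be technical. With bulk RNA, fewer cells of a type in a sort and less RNA per cell cannot be told apart. The SE of a member's change between 2 groups had a median of 0.27 and ran from 0.18 to 0.39, so a member that missed the threshold is not shown to be unchanged.

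Depth ran from 5.64 to 31.06 M reads per library, lowest in tet3-/- replicates 1 and 2 and highest in the double mutants. The read counts of tet3-/- replicates 1 and 2 were the most alike of any same-group pair. Their chi-square per gene was 3.98, against 8.56 to 284 in the other pairs, a measure that is also lower at lower depth. Whether these 2 libraries came from separate embryos is not in the labels, so the tet3-/- group may hold fewer than 3 independent samples. The 12 neutrophil markers took 0.925 to 3.19% of the normalised counts, with tet2-/- replicate 1 lowest. The heat shock genes hsp70l and hsp70.3 took 3.52 to 4.14% in wildtype at 2 dpf, 2.18 to 4.88% in tet2-/-, 0.279 to 0.299% in tet3-/-, 0.079 to 1.89% in the double mutants and 0.057 to 0.107% at 1.5 dpf. The 8 erythroid markers took 0.698 to 0.795% at 1.5 dpf and 0.014 to 0.154% elsewhere. Other marker lists differed between groups too. Against wildtype at 2 dpf, 8 of 10 pigment cell markers rose at 1.5 dpf, 6 in the double mutants and 4 in tet3-/-. In the double mutants 7 of 12 macrophage and 7 of 12 endothelial markers fell, and in tet3-/- 3 of 8 epidermal and 4 of 12 endothelial markers rose and 5 of 9 muscle markers fell. The markers of a list did not all go the same way. In tet3-/- the epidermal markers krt8 and icn, the endothelial marker stab1 and the pigment cell marker pax7a lay below all wildtype libraries at 2 dpf. For stab1 the values were 1588, 1454 and 930 against 2055, 2081 and 2041. The part of these lists in the members' values was not tested. The mRNAs of tet2 and tet3 themselves did not pass the test in any mutant group, which says nothing of the proteins.

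Every member was detected in every library, with at least 39 reads, and all 73 passed the filter on low values. Reads of the members summed to between 9611 and 77260 per library. Their mean values over the 15 libraries ran from 119 to 986, with a median of 329 against 271 for all genes. The highest means were those of mrpl16 and mrpl2, whose bacterial counterparts lie near the tRNA sites and the catalytic centre of the large subunit, and of the stalk protein gene mrpl12. The lowest were those of mrps21, mrpl52 and mrps14. The ratio of the highest to the lowest library of a member had a median of 2.35 and ran from 1.41 to 3.99. The SD of the log2 values over the 15 libraries had a median of 0.35 for the members and 0.49 for all genes tested. Counting error alone gives an SD of 0.054 to 0.16 for these genes, and 62 of 73 members had more than 3 times their own counting error.

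The steadiest member was mrps25, a small subunit protein gene without a bacterial counterpart. It read 575, 566 and 463 in wildtype at 2 dpf, 635, 604 and 528 at 1.5 dpf, 596, 514 and 535 in tet2-/-, 486, 484 and 590.0 in tet3-/- and 652, 545 and 521 in the double mutants. All 5 groups overlap, and the SD of its log2 values was 0.15. The next steadiest were mrps16 at 0.19 and mrpl30 at 0.20. At the other end stood mrps21, the counterpart of bacterial S21, with an SD of 0.55, mrpl1, which forms the mobile L1 arm at the exit site of the large subunit, with 0.51, and mrps6 with 0.48. Libraries of the same group differed widely in mrpl1, with an SD within groups of 0.48. Its double mutant values were 195, 66.9 and 161, and its tet2-/- values were 92.4, 196 and 158. Groups differed in mrpl1 too: all tet3-/- and all 1.5 dpf libraries lay above all wildtype libraries at 2 dpf.

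The 73 members together took 0.169, 0.140 and 0.143% of the normalised counts in wildtype at 2 dpf and 0.215, 0.182 and 0.181% in wildtype at 1.5 dpf. The share was 0.129, 0.159 and 0.132% in tet2-/-, 0.171, 0.167 and 0.203% in tet3-/-, and 0.249, 0.136 and 0.173% in the double mutants. The 1.5 dpf libraries all lie above the wildtype libraries at 2 dpf, tet2-/- overlaps wildtype, and the double mutants span nearly the whole range of the series, with its highest library and one of its lowest. The 95% Wilson interval of each share reached at most 0.0034 percentage points either way, which covers counting error only. Of the 73 members, 46 had their highest value of all 15 libraries in double mutant replicate 1, 10 in replicate 1 of wildtype at 1.5 dpf and 7 in replicate 2. The lowest value of 27 members was in tet2-/- replicate 1, and that of 12 was in double mutant replicate 2. These counts were not made over all genes, so they have no share to be read against.

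**Figure D1:**
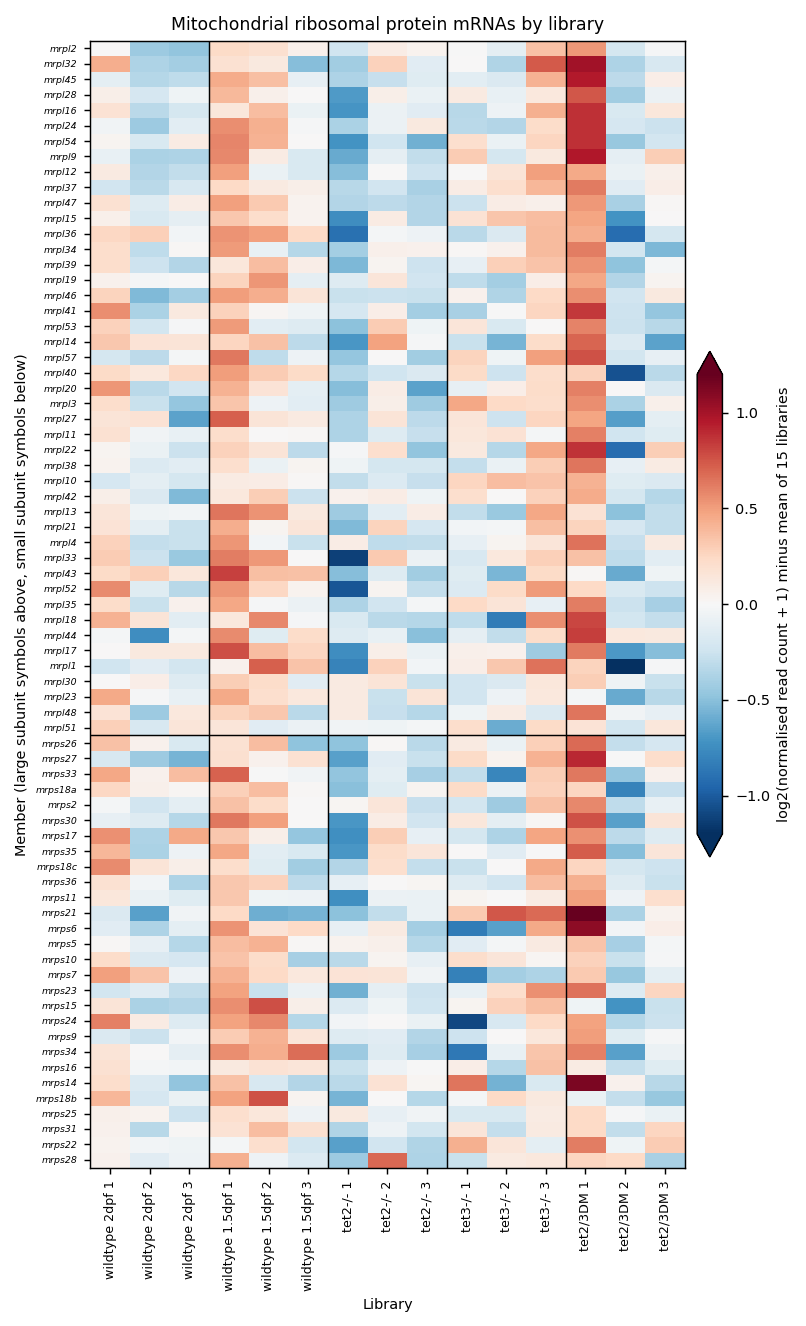
Each row is a member and each column a library, and the colour gives log2(normalised read count + 1) minus the member's mean over the 15 libraries, with large subunit symbols above the line and small subunit symbols below. Columns rather than single rows stand out: double mutant replicate 1 is high in nearly all rows and tet2-/- replicate 1 is low in most.

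Between wildtype at 1.5 dpf and wildtype at 2 dpf, the members were mostly a little higher in the younger embryos. The median change was 0.23, against -0.012 for all genes tested, and 89.0% of members lay above 0. Without replicate 1 of the younger group the median was 0.097, and without its replicate 3 it was 0.34. 1 of 73 members rose and none fell, where 20.8% of all genes tested passed, 9.18% rising and 11.6% falling. At an unadjusted p under 0.05 stood 5 of 73 members, against 34.4% of all genes. In 16 members the 3 younger libraries lay above all 3 older ones, against 20.9% of all genes, and in none did they lie below, against 22.4%. Read against those shares, fewer members passed either p threshold, the count wholly above is near the background, and the count wholly below is under it.

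The member that rose was mrps15, the counterpart of bacterial S15, which binds the small subunit RNA early in assembly. Its values were 929, 1081 and 663 at 1.5 dpf and 703, 485 and 493 at 2 dpf (891 ± 211 against 559.9 ± 124, SD, n = 3). Replicate 3 of the younger group lies below replicate 1 of the older one, so the groups overlap. The change was 0.66 with an SE of 0.23 (limma adjusted p = 0.049). The call held with 0.5 or 5 added to the values in place of 1, without a filter, with a filter of 50 and in DESeq2. It also held without replicate 1 of wildtype at 2 dpf or replicate 3 at 1.5 dpf. Under the other alternatives it was lost, narrowly with TMM scaling (limma adjusted p = 0.0514) and in edgeR (edgeR adjusted p = 0.0505). Over all alternatives the adjusted p ran from 0.0182 to 0.977, the highest with hsp70l as a covariate. Without replicate 2 or 3 of wildtype at 2 dpf limma gave 0.166 and 0.164, and without replicate 1 or 2 of wildtype at 1.5 dpf it gave 0.14 and 0.184. The younger sort also differed in its erythroid and pigment cell markers and its heat shock share, as given above, and their part in this difference was not tested.

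Other members had changes of like size without passing. The mrpl46 mRNA, for a protein of the central protuberance on top of the large subunit, read 308, 293 and 240.5 at 1.5 dpf and 260.1, 149.9 and 163 at 2 dpf (change 0.59, SE 0.27, adjusted p = 0.134 by limma). Replicate 1 of the older group lies within the younger group. For mrps30 the values were 939, 854 and 608 and 565, 543 and 476, with no overlap (change 0.58, SE 0.30, adjusted p = 0.177 by limma), and for mrpl1 they were 168, 267 and 205 and 137, 148 and 139, also apart (change 0.57, SE 0.37, adjusted p = 0.297 by limma). The lowest changes were those of mrps18c at -0.38, mrps17 at -0.23, mrpl14 at -0.11 and mrpl51 at -0.10, with limma adjusted p from 0.323 to 0.859. Among the 3 stalk members, the 6 of the tunnel exit, through which new proteins leave, and the 5 of the central protuberance, all 14 changes lay above 0, with medians of 0.25, 0.32 and 0.14.

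In tet3-/- neutrophils against wildtype at 2 dpf, 0 of 73 members passed limma's test, where 7.27% of all genes did. At an unadjusted p under 0.05 there were 5 members, against 22.8% of all genes. EdgeR called 0 members and DESeq2 called 1, where they called 991 and 1732 of all genes. The median change was 0.081, against -0.040 for all genes. Leaving out 1 library moved its size but not its sign. It was 0.11, 0.14 and 0.018 without tet3-/- replicates 1, 2 and 3, and 0.18, 0.023 and 0.034 without replicates 1, 2 and 3 of wildtype. The libraries of the groups did not overlap in 9 members: 8 were higher in tet3-/- (19.3% of all genes) and 1 was lower (19.9%). Both counts are below those shares of 73.

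The member nearest the threshold was mrps7, the counterpart of bacterial S7, around which the head of the small subunit is built. It read 182, 241 and 248 in tet3-/- and 452, 408 and 307 in wildtype (224 ± 35.9 against 389 ± 74.2). All tet3-/- libraries lie below all wildtype libraries, and below all tet2-/- libraries, which read 359, 357 and 311. The change was -0.79 with an SE of 0.23 (limma adjusted p = 0.0506), which misses 0.05. DESeq2 put it at 0.0259 and limma on those 6 libraries alone at 0.0113, and the range over all alternatives was 0.0113 to 0.186. In the double mutants, which lack tet3 as well, mrps7 read 399, 234 and 296, a range that overlaps both groups, and its change against tet3-/- was 0.45 (limma adjusted p = 0.381).

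The largest positive change in tet3-/- was that of mrps21. Its values were 137, 186 and 177 in tet3-/- and 97.5, 69.9 and 107 in wildtype, with no overlap (change 0.87, SE 0.38, adjusted p = 0.187 by limma). For mrps27, a pentatricopeptide repeat protein of the small subunit in mammals, they were 391, 344 and 447 and 293, 247 and 227, also apart (change 0.62, SE 0.24, adjusted p = 0.132 by limma). The stalk base gene mrpl10 read 277, 298 and 293 in tet3-/- and 201, 213 and 199 in wildtype, where each group is tight and the tet3-/- group lies wholly higher (change 0.50, SE 0.21, adjusted p = 0.163 by limma). On the lower side, mrps33, mrps24 and mrpl14 had changes of -0.56, -0.53 and -0.42 with overlapping groups. Tet3-/- replicate 3 was higher than the other 2 tet3-/- libraries in most members, so the spread within the group is itself shared among members.

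**Figure D2:**
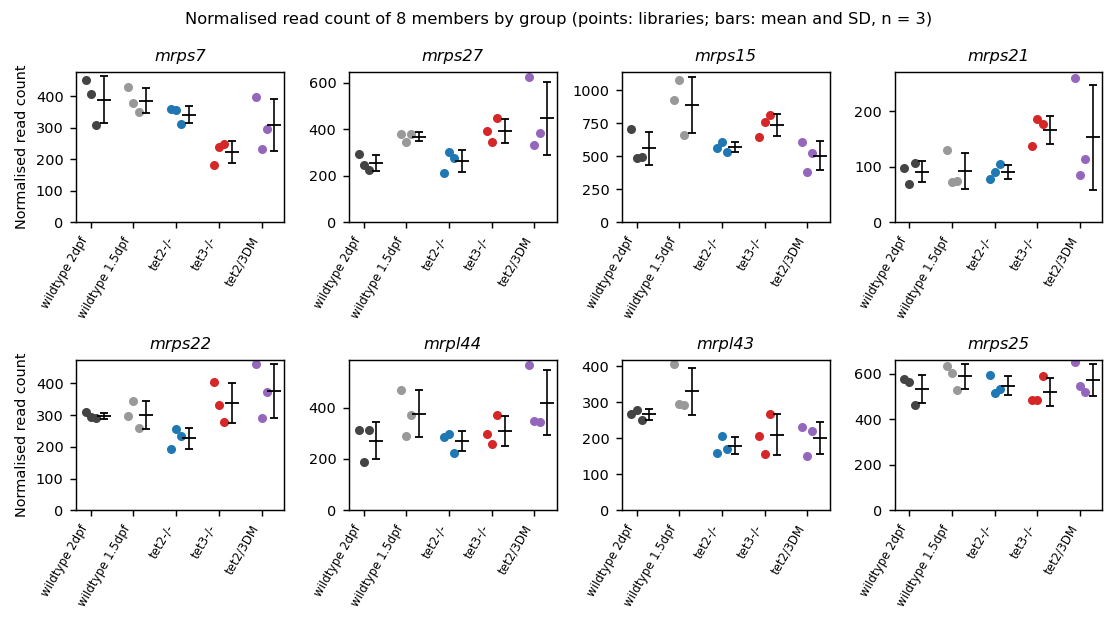
Each point is the normalised read count of a member in 1 library, by group, with mean and SD (n = 3) to the right of the points and axes from 0. The tet3-/- points of mrps7 lie below all wildtype points at 2 dpf, double mutant replicate 1 lies above the other double mutants in every panel, and mrps25 is level across groups.

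In the double mutants against wildtype at 2 dpf, again 0 of 73 members passed limma's test, where 8.68% of all genes did. The unadjusted p was under 0.05 in 4 members, against 22.9% of all genes. EdgeR called 0 members and DESeq2 called 1, where they called 1351 and 2093 of all genes. The median change was 0.087, against 0.013 for all genes. The libraries did not overlap in 4 members that were higher (15.5% of all genes) and 1 that was lower (15.7%). The median rests on which double mutant library is included: it was -0.14 without replicate 1, 0.27 without replicate 2 and 0.16 without replicate 3. Without replicates 1, 2 and 3 of wildtype it was 0.19, 0.032 and 0.021.

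The mrps27 mRNA came nearest to the threshold. It read 626, 332 and 385 in the double mutants and 293, 247 and 227 in wildtype, so even the lowest double mutant library was above the highest wildtype library. The change was 0.76 with an SE of 0.24 (limma adjusted p = 0.0624). It passed in DESeq2, at 0.0231, and in limma without double mutant replicate 2, at 0.0261, within a range of 0.0231 to 0.905 over all alternatives. At 1.5 dpf the mrps27 values were 381, 345 and 379 and in tet2-/- 212, 303 and 278. The wildtype libraries at 2 dpf serve as the reference of every one of these comparisons, so they are not independent of each other.

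Among the other large changes, mrpl44, whose protein is related to ribonuclease III, read 567, 347 and 345 against 314, 189 and 312 in wildtype, without overlap (change 0.62, SE 0.28, adjusted p = 0.188 by limma). For mrpl9 the values were 483, 229.5 and 303 against 232, 189 and 191, where replicate 2 falls within the wildtype range (change 0.67, SE 0.29, adjusted p = 0.171 by limma). For both genes it is replicate 1 that stands high, as in most members. The mrpl40 mRNA, of the central protuberance, had the lowest change. It read 341, 137 and 225 against 332, 308 and 336 (change -0.57, SE 0.27, adjusted p = 0.227 by limma). Double mutant replicate 1 lies at the wildtype level and the other 2 below it, and without replicate 1 limma gave a change of -0.89 with an adjusted p of 0.0457. The tunnel exit gene mrpl23, which ran 556, 371 and 449.6 against 778, 560.0 and 532, and mrpl43, which ran 231, 150.2 and 220.3 against 269, 279 and 250.5, were the next lowest, with changes of -0.44 and -0.43.

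In tet2-/- against wildtype at 2 dpf, 0 of 73 members passed in limma, edgeR or DESeq2, and 0.1% of all genes passed in limma. The unadjusted p was under 0.05 in 1 member, against 6.29% of all genes. The median change was -0.10, against -0.0021 for all genes, and 24.7% of members lay above 0. In 9 members all tet2-/- libraries lay below all wildtype libraries, where 6.13% of all genes did, and in none did they lie above, where 5.54% did. These 9 were mrpl11, mrpl18, mrpl40, mrpl43, mrpl47, mrpl54, mrps22, mrps33 and mrps34.

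The member with an unadjusted p under 0.05 was mrpl43, of the mitochondrial additions to the large subunit. It read 159.6, 205 and 171 in tet2-/- and 269, 279 and 250.5 in wildtype, without overlap (change -0.58, SE 0.26, adjusted p = 0.746 by limma). The largest negative change was that of mrps33, at 189.6, 242 and 199 against 363, 274 and 341 (change -0.63, SE 0.32, adjusted p = 0.822 by limma). Tet2-/- replicate 1, which is the lowest of its group in most members, had the lowest share of neutrophil markers in the series, 0.925%, and the highest shares of neural markers, 0.197%, and epidermal markers, 0.612%. Their part in these differences was not tested. Without that library the median change of the members was -0.037, and without tet2-/- replicate 2 it was -0.21. Without replicates 1, 2 and 3 of wildtype it was -0.014, -0.18 and -0.16. At the upper end stood mrpl2 at 0.27, mrpl42 at 0.24, mrps14 at 0.10 and mrpl24 at 0.092, with limma adjusted p from 0.916 to 0.988.

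The double mutants were also set against each single mutant. Against tet2-/- 0 of 73 members passed limma's test, where 4.45% of all genes did. There were 6 members with an unadjusted p under 0.05, against 17.9% of all genes. EdgeR called 0 and DESeq2 called 2, where they called 714 and 1316 of all genes. The median was 0.25, against -0.0041 for all genes, and 7 members were higher in every double mutant library, where 7.63% of all genes were, and none was lower in every one, where 8.02% were. The median was -0.021 without double mutant replicate 1, 0.44 without its replicate 2 and 0.12 without tet2-/- replicate 1, and -0.29 with hsp70l as a covariate. The 2 that DESeq2 called, mrps22 and mrps27, also passed in limma without double mutant replicate 2, with adjusted p of 0.0374 and 0.0413. The mrps22 gene, for a small subunit protein of the mitochondrial lineage, read 461, 291 and 373 in the double mutants and 192, 257 and 234 in tet2-/-, without overlap (change 0.70, SE 0.23, adjusted p = 0.0971 by limma). The wildtype libraries at 2 dpf read 309.6, 295 and 291.

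Against tet3-/-, 0 of 73 members passed in limma, edgeR or DESeq2, where 2.33% of all genes passed in limma. The unadjusted p was under 0.05 in 2 members, against 15.4% of all genes, and the median was 0.024, against 0.029 for all genes. Leaving out 1 library turned its sign in 3 of 6 cases, to -0.21 without double mutant replicate 1 and to -0.027 and -0.055 without tet3-/- replicates 1 and 2. It was 0.17 and 0.087 without double mutant replicates 2 and 3 and 0.13 without tet3-/- replicate 3. In mrps15 and mrps18b the double mutants lay below all tet3-/- libraries, where 12.0% of all genes did, and in no member did they lie above, where 10.9% did. For mrps15 the values were 607, 384 and 524 in the double mutants and 645, 762 and 808 in tet3-/- (change -0.57, SE 0.23, adjusted p = 0.235 by limma). The largest positive change was that of mrps6, at 548, 256 and 276 against 145, 165 and 357, where both groups hold 1 library far above the other 2 (change 0.72, SE 0.33, adjusted p = 0.314 by limma). In the interaction, which asks whether the double mutant differs from the sum of the single mutant changes, 0 of 73 members passed in limma, edgeR or DESeq2, where 0.333% of all genes passed in limma. Its largest value was that of mrps33, 0.96 with an SE of 0.45 (limma adjusted p = 0.605), the 1 member with an unadjusted p under 0.05, against 8.13% of all genes.

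**Figure D3:**
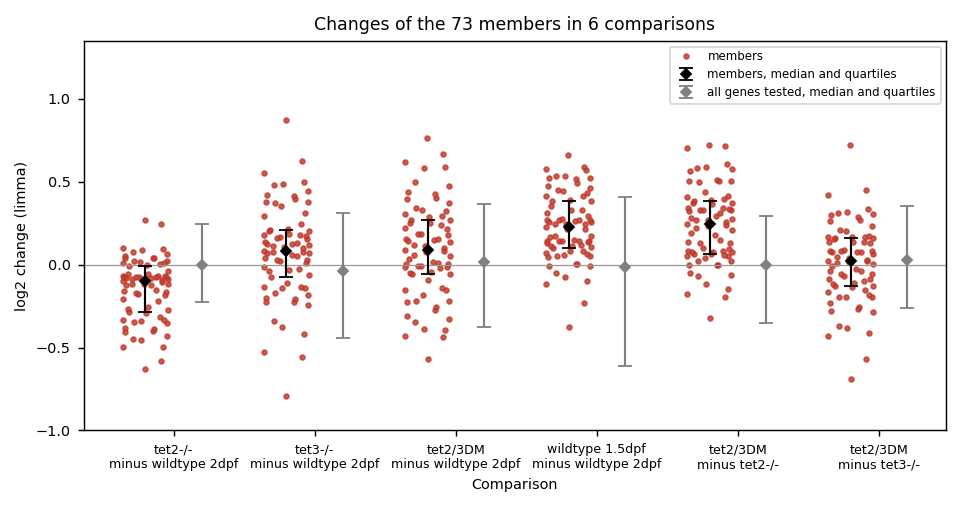
Each red point is the log2 change of 1 member in a comparison, with the median and quartiles of the 73 members in black and those of all genes tested in grey. The members lie within 0.9 of 0 in each of the 6 comparisons plotted, which leave out the interaction, and their medians run from -0.097 in tet2-/- to 0.25 in double mutants against tet2-/-.

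The members as a whole also differed between libraries of the same group. Double mutant replicate 1 was above replicate 2 in 73 of 73 members, where 48.4% of all genes were, with a median log2 difference of 0.85. It was above replicate 3 in 72 of 73, where 48.6% of all genes were, with a median of 0.59. In wildtype at 2 dpf, replicate 1 was above replicate 2 in 65 members and above replicate 3 in 64, where 48.6 and 49.3% of all genes were. At 1.5 dpf, replicate 1 was above replicate 3 in 69 members, where 47.2% of all genes were. In tet3-/-, replicate 3 was above replicate 1 in 59 and above replicate 2 in 62. In tet2-/-, replicate 2 was above replicate 1 in 65. Of the other pairs, replicate 2 of wildtype at 2 dpf was above replicate 3 in 36 of 73 and replicate 1 of tet3-/- above replicate 2 in 40, with medians of -0.0020 and 0.032. The remaining pairs leaned to one side with smaller medians. At 1.5 dpf replicate 1 was above replicate 2 in 55 and replicate 2 above replicate 3 in 62, in tet2-/- replicate 2 was above replicate 3 in 60 and replicate 1 above replicate 3 in 21, and in the double mutants replicate 2 was above replicate 3 in 21. Over all same-group pairs, the share of all genes that were higher in the lower-numbered replicate ran from 47.2 to 52.5%.

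This shared movement can be given as a correlation of deviations from the group means over the 15 libraries, which leave 10 degrees of freedom and share scaling and depth within a library. It is a description without a test. Over the 2628 pairs of members the median Pearson r was 0.64, and all but 2 pairs were positive, with a lowest r of -0.053. The median between a member and any gene that is no member was -0.029, with 48.0% of pairs positive. Without double mutant replicate 1 the median between members fell to 0.46, with 94.9% of pairs positive, and leaving out any other single library gave 0.59 to 0.68. Within the large subunit symbols the median was 0.66 and within the small subunit symbols 0.60. The members that followed the others most were mrpl2 and mrpl32, both with a median r of 0.76. Those that followed them least were mrpl51 and mrps28 at 0.40 and mrpl48 at 0.43.

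**Figure D4:**
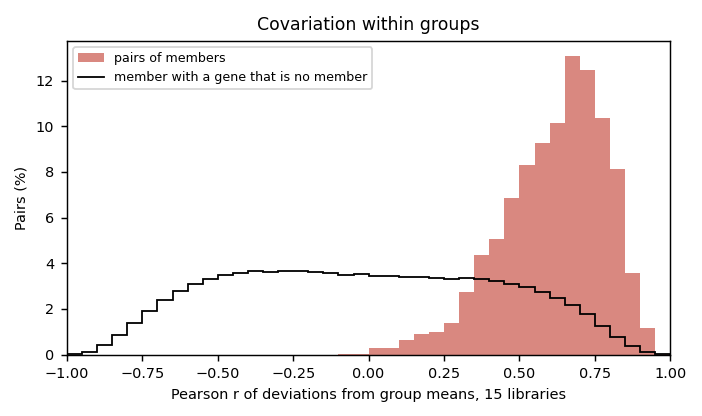
The filled histogram gives the Pearson r of deviations from group means over 15 libraries for the 2628 pairs of members, and the line gives it for pairs of a member with any other gene. Member pairs lie almost wholly above 0 with a median of 0.64, while the other pairs spread evenly around a median of -0.029.

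As an example of the shared movement, mrpl32, the counterpart of bacterial L32, read 557, 214 and 242 in the double mutants, 375, 213 and 208 in wildtype at 2 dpf and 277, 216 and 459 in tet3-/-. In each of these groups 1 library was well above the other 2, and it was the library in which the members as a whole stood highest. The mrps28 mRNA read 305, 299.8 and 194, 263, 231 and 243 and 211, 273 and 278 in the same groups, with double mutant replicates 1 and 2 alike.

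The genes for the cytosolic ribosome and for the respiratory chain moved with the members. The median r between a member and each of the 77 cytosolic ribosomal protein genes was 0.62, and with each of the 86 nuclear genes of the respiratory chain and ATP synthase it was 0.65. Within those lists the medians were 0.88 and 0.74. The lists for protein import and for mitochondrial gene expression apart from ribosomal proteins gave lower medians with the members. These were 0.56 for protein import, 0.47 for mitoribosome assembly and ribosomal RNA modification, 0.45 for translation factors, 0.42 for aminoacyl-tRNA synthesis and 0.28 for mitochondrial DNA and transcription. Within each of these lists the median was lower still, at 0.53, 0.37, 0.31, 0.37 and 0.20 in the same order. In 4 of 5 groups the library highest in the members was also highest in both the cytosolic ribosomal protein and the respiratory chain lists. The exception was tet2-/-.

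Other features of the libraries were set beside the members in the same way. In 4 of 5 groups the library highest in the members had the lowest heat shock share of its group. In 3 of 5 it had the lowest share of neural markers, in 3 of 5 the greatest depth, and in 2 of 5 the highest share of neutrophil markers. With only 3 libraries in a group, such matches can arise by chance. In the double mutants, replicate 1 had heat shock, neural and muscle shares of 0.079, 0.046 and 0.093%, replicate 2 of 1.89, 0.131 and 0.0040%, and replicate 3 of 0.603, 0.078 and 0.0060%. In tet3-/- the heat shock share was nearly the same in all 3 libraries, 0.299, 0.299 and 0.279%, while the members were higher in replicate 3. With reads thinned to the depth of the shallowest library, the member median of each comparison moved by at most 0.058 on the log2 scale. That largest move was from 0.087 to 0.145 in the double mutants against wildtype. The thinned reads were fitted only for changes between groups, so they do not bear on the shared movement within groups. With hsp70l as a covariate the member medians against wildtype at 2 dpf were -0.60 in tet3-/-, -0.44 in the double mutants and -0.71 at 1.5 dpf, which turns their direction. Since hsp70l itself differs between these groups, the covariate and the group cannot be told apart. The part of heat shock, of depth, of other cell types and of sorting in the shared movement was not tested.

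**Figure D5:**
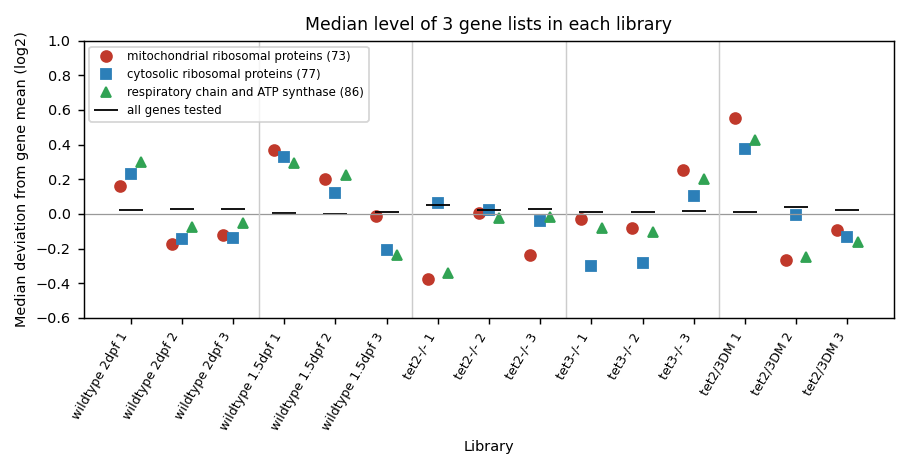
For each library the points give the median over a list of log2(normalised read count + 1) minus each gene's mean over 15 libraries, for the members, the cytosolic ribosomal protein genes and the respiratory chain genes, with a dash for all genes tested. All 3 lists are at their highest in double mutant replicate 1, while the dash stays between 0 and 0.06.

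Grouped by their position in mammalian or bacterial ribosomes, the members gave the following medians, each from a few genes and with no test. In tet3-/- against wildtype the 3 stalk members, mrpl10, mrpl11 and mrpl12, which hold the site where translation factors bind, had a median change of 0.40, against 0.081 for all members, and none passed the test. The 6 tunnel exit members had a median of -0.013 and the 5 of the central protuberance 0.011. In the double mutants these medians were 0.21, 0.097 and 0.22. Members with a bacterial counterpart numbered 46 and those without numbered 27. Their medians were -0.090 and -0.11 in tet2-/-, 0.090 and 0.078 in tet3-/-, 0.045 and 0.14 in the double mutants, and 0.22 and 0.27 at 1.5 dpf. The 6 ribosomal proteins listed under other symbols, among them dap3 and ptcd3, had 0 calls by limma, edgeR or DESeq2 in any comparison. Their medians were -0.067, 0.29, 0.17 and 0.38 in the same order, each from 6 genes.

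Some genes that act on the mitochondrial ribosome or on the organelle around it did pass the test, and they were counted by lists. These counts are to be read against the 7.27% of all genes that passed in tet3-/-, 8.68% in the double mutants and 20.8% at 1.5 dpf. Counts at an unadjusted p under 0.05, here and in the lists below, have their own shares of all genes. These were 6.29% in tet2-/-, 22.8% in tet3-/- and 22.9% in the double mutants. Of the 14 mitochondrial translation factors, 0 rose and 1 fell in tet3-/-, in the double mutants and at 1.5 dpf. That gene was mss51, which in yeast activates translation of a cytochrome oxidase subunit and in mammals is mainly expressed in skeletal muscle. No factor of this list was called in tet2-/- by limma, edgeR or DESeq2, where 1 had an unadjusted p under 0.05. The mss51 mRNA read 578, 631 and 693 in wildtype at 2 dpf and 989.8, 745 and 1047 in tet2-/-, but 13.2, 2.51 and 14.6 in tet3-/-, 40.7, 231 and 10.1 in the double mutants and 16.8, 10.4 and 27.5 at 1.5 dpf. The limma changes were -6.11 (adjusted p = 0.000653), -3.74 (adjusted p = 0.00954) and -5.14 (adjusted p = 0.000615). Slow muscle myosin smyhc1 was at 3455, 4102 and 3959 in wildtype at 2 dpf, at 3878, 794 and 2324 in tet2-/-, at 0, 7.52 and 135 in tet3-/-, at 724, 34 and 276 in the double mutants, and at 757, 2701 and 1360 at 1.5 dpf. The 9 muscle markers took 0.054 to 0.066% in wildtype at 2 dpf, 0.015 to 0.063% in tet2-/-, 0.0045 to 0.015% in tet3-/-, 0.0040 to 0.093% in the double mutants and 0.015 to 0.034% at 1.5 dpf. Double mutant replicate 1 had the highest muscle share with mss51 at 40.7. There myhz1.1, ckma and acta1b read 6505, 4242 and 1826, above all wildtype libraries at 2 dpf. The other muscle markers lay below all of these, with smyhc1 at 724, myl10 at 342 and ttn.2 at 399. The same held for tnnt2a at 8.33, tnni1c at 88.7 and myod1 at 37.2. Tet2-/- replicate 2 had a share of 0.015% with mss51 at 745. The hsp70l mRNA read 208418 to 564696 in wildtype at 2 dpf and tet2-/-, and 4965 to 17787 in tet3-/- and at 1.5 dpf. In the double mutants it read 5505, 156506 and 41711. The part of muscle RNA and of heat shock in the mss51 difference was not tested.

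Of the 19 genes for mitoribosome assembly and ribosomal RNA modification, fastkd2, which binds the large ribosomal RNA of mitochondria, rose in tet3-/-. Its values were 695, 534 and 573 in tet3-/- and 346, 346 and 304 in wildtype, with no overlap (change 0.85, SE 0.21, adjusted p = 0.0257 by limma). It read 515, 412 and 596 in the double mutants and 510, 396 and 387 at 1.5 dpf. Both groups also lie wholly above wildtype at 2 dpf, though fastkd2 did not pass in either. At 1.5 dpf rpusd4, a pseudouridine synthase of that RNA, was the 1 gene that rose, from 168 ± 38.3 at 2 dpf to 295 ± 41.7 (change 0.83, SE 0.24, adjusted p = 0.0244 by limma). No gene of this list was called by limma or edgeR in the double mutants or in tet2-/-, and DESeq2 also called 0 there; 2 and 0 had an unadjusted p under 0.05. Of the 16 aminoacyl-tRNA synthesis genes, the leucyl and alanyl synthetase genes lars2 and aars2 rose at 1.5 dpf, with changes of 1.16 and 1.09 (limma adjusted p = 0.0253 and 0.0272). None was called by limma, edgeR or DESeq2 in any mutant against wildtype, where 0, 2 and 3 had an unadjusted p under 0.05 in tet2-/-, tet3-/- and the double mutants.

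Among the 16 genes of mitochondrial DNA and transcription, lrpprc, which stabilises mitochondrial mRNAs, rose in the double mutants. It read 2828, 1871 and 2539.9 against 1511, 1623 and 1298 in wildtype (change 0.69, SE 0.20, adjusted p = 0.0369 by limma). Even its lowest double mutant library, replicate 2, was above all wildtype libraries. In tet3-/- it read 2314, 2322 and 2357, all above wildtype, with a limma adjusted p of 0.0502. The lrpprc values at 1.5 dpf were 2077, 2290 and 2110, also all above wildtype at 2 dpf. In tet2-/- they were 1081, 1757 and 1510, which overlap wildtype.

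Of the 25 protein import genes, 3 rose and 1 fell in tet3-/-, 4 rose and 1 fell in the double mutants, and 5 rose and 2 fell at 1.5 dpf. None was called in tet2-/- by limma or edgeR. DESeq2 called 1 there, where it called 111 of all genes, and 4 had an unadjusted p under 0.05. The 7 of 25 at 1.5 dpf stand against 20.8% of all genes. The outer membrane receptor gene tomm70a read 1576, 876 and 1419 in the double mutants, 1139, 1046 and 1267 in tet3-/- and 595, 612 and 753 in wildtype. Both mutant groups lie wholly above wildtype (limma log2 change 0.94, adjusted p = 0.0154, and 0.82, adjusted p = 0.0386). The inner membrane channel gene timm17a and the matrix chaperone gene hspa9 rose in the same 2 groups. The gene that fell in both was tomm34, a cytosolic cochaperone of import, from 1358 ± 148 in wildtype to 525 ± 86.1 in tet3-/- and 678 ± 434 in the double mutants.

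Of the 12 regulators of mitochondrial biogenesis, 2 rose in tet3-/-, 2 rose in the double mutants, and 4 rose and 1 fell at 1.5 dpf. The transcription factor gene yy1a rose in all 3. It read 1400.1, 1507 and 1401 in tet3-/-, 1799, 1582 and 1491 in the double mutants, 1121, 1196 and 1369 at 1.5 dpf and 704, 633 and 689.7 in wildtype at 2 dpf, and each of the 3 groups lies wholly above wildtype at 2 dpf. The limma changes were 1.09 (adjusted p = 0.00149), 1.26 (adjusted p = 0.000248) and 0.86 (adjusted p = 0.00252). The coactivator gene pprc1 rose in tet3-/- and at 1.5 dpf, to 2283 ± 113 and 2470.3 ± 29.8 from 1337 ± 184. The gene gabpa, for a subunit of the GA binding protein that is known in mammals to act at promoters of respiratory genes, rose in the double mutants and at 1.5 dpf, to 1016 ± 138 and 1245 ± 163 from 651 ± 72.8. No regulator was called in tet2-/- by limma, edgeR or DESeq2, where 0 had an unadjusted p under 0.05. Of the 12 prohibitin and inner membrane protease genes, the protease subunit gene clpxb and the prohibitin gene phb2a rose at 1.5 dpf, to 816 ± 150.4 and 1663 ± 196 from 446 ± 64.1 and 1071 ± 103. None of them was called by limma or edgeR in a mutant against wildtype. DESeq2 called 3 in the double mutants, where it called 2093 of all genes. In tet2-/-, tet3-/- and the double mutants 1, 3 and 5 had an unadjusted p under 0.05.

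Few genes of the other large assemblies passed the test. Of the 77 cytosolic ribosomal protein genes, 0 were called by limma or edgeR in any comparison, and DESeq2 called 1. In tet2-/-, tet3-/-, the double mutants and at 1.5 dpf, 0, 0, 7 and 0 had an unadjusted p under 0.05. Those counts stand against 6.29, 22.8, 22.9 and 34.4% of all genes. Of the 86 respiratory chain and ATP synthase genes, 3 fell in the double mutants and 3 fell at 1.5 dpf. In these comparisons 8.68 and 20.8% of all genes passed in either direction. In the double mutants these were the cytochrome oxidase genes cox6a2, cox4i1l and cox8b, with limma changes of -2.29, -2.33 and -1.38. COX6A2 and COX8B are muscle and heart forms in mammals. At 1.5 dpf they were cox4i1l, cox6b1 and ndufa4, with changes of -3.54, -1.02 and -1.06.

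The members are scattered over the genome. In the gene order of the zebrafish RefSeq assembly GRCz12tu, which is not known to be the build of the deposited table and is used only for neighbours, 72 members could be placed. None was among the 100 tested genes nearest to tet2 or among the 100 nearest to tet3. On the chromosome of tet2 lay mrpl16 and mrpl39, and on that of tet3 lay mrpl1, mrpl41, mrps30 and mrps31. Of the 72, 23 overlapped another gene, among them mrpl37, mrpl40, mrpl9, mrpl24 and mrps22. Overlap here means that the spans of the genes from start to end meet, whether or not their exons do. Where exons overlap, strand cannot assign a read to one gene or the other, because the library kit does not mark it. The genes mrps7, mrps15, mrps21 and mrps27 had no such overlap.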

How the data were processed

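Per the labels' protocols, libraries of sorted neutrophil RNA were made with TruSeq RNA v2. This kit selects polyadenylated RNA and does not mark strand. The submitters' processing notes name TopHat, Cufflinks and DESeq2 without versions. The genome build, the annotation and how reads were counted: not given in the sources used here.

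For each library the authors deposited a signal per gene, which the values show to be a read count over a library size factor. All 100% of values are whole multiples of 1 read's value, within a tolerance of 0.01 reads. Members matched the pattern ^mrp[ls][0-9], and the identifiers of 71 of 73 are in the gene name table.

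Values entered limma 3.58.1 under R 4.3.3 as log2(value + 1), with trend and robust moderation, 5 group means over 15 libraries, two-sided, at an adjusted p of 0.05. Genes needed a value of 10 in 3 libraries, which kept 15933. The recovered reads were also tested with DESeq2 1.42.0 and with edgeR 4.0.16. The fit was tested on simulated data. Alternatives covered pseudocount, filter, scaling, tool, libraries in the fit, replicate block, hsp70l as a covariate, thinning and each library left out. The correlation between members with libraries left out was added after seeing the data.

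Members and lists were chosen with earlier results of these data known. Named were, in each comparison, members past the threshold and the 4 largest rises and falls, the 3 highest and lowest by mean and by SD, and up to 4 genes per list by smallest p. A few further members, such as mrpl32, mrpl37, mrps22, mrps28 and those without overlap, were named after their values were seen.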

Additional observations from a re-analysis of the deposited data

How the results depend on the processing

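The count of members that passed was 0 under every alternative for tet2-/- against wildtype, the double mutants against tet3-/- and the interaction. For tet3-/- against wildtype it went from 0 to 1 with a pseudocount of 5, a filter of 50 or DESeq2 (mrps7), and to 4 with only the groups compared in the fit (mrps7, mrps21, mrps27 and mrpl37). Of all genes, 1252, 1151, 1732 and 3912 passed under these 4 settings, in that order. For the double mutants against wildtype it was 1 with DESeq2 and 0 to 1 over the fits without 1 replicate, and against tet2-/- it was 2 with DESeq2 and 0 to 2 over those fits. DESeq2 called 2093 and 1316 of all genes in these 2 comparisons. At 1.5 dpf the count of 1 became 0 with TMM scaling, quantile normalisation, edgeR, only the groups compared, hsp70l as a covariate or thinned reads, and ran from 0 to 1 without 1 replicate. The causes were not tested.

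Counts over all genes that moved by more than 1.5 times were as follows. Over the fits without 1 replicate they ran from 7 to 85 for tet2-/-, 382 to 749 for tet3-/-, 688 to 1673 for the double mutants, 1845 to 3316 at 1.5 dpf, 377 to 1145 for the double mutants against tet2-/-, 168 to 314 against tet3-/- and 14 to 141 in the interaction. DESeq2 called 111 genes against 16 in limma for tet2-/-, 2093 against 1383 for the double mutants, 1316 against 709 for the double mutants against tet2-/-, 854 against 372 against tet3-/-, and 236 against 53 in the interaction. With only the groups compared, the counts were 0 for tet2-/-, 3912 against 1159 for tet3-/-, 66 for the double mutants against tet2-/- and 600 against tet3-/-. Quantile normalisation gave 32 for tet2-/- and moved the median of all genes at 1.5 dpf by 0.10, after which the members stood 0.15 above it, from 0.24. With hsp70l as a covariate the counts were 21 for tet3-/-, 159 for the double mutants, 41 at 1.5 dpf, 108 for the double mutants against tet2-/- and 81 in the interaction.

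Signs were compared for the 4 largest rises and falls of each comparison. Those that turned were all of members that did not pass. Over all 73 members, the hsp70l covariate left 1 above 0 in tet3-/- in place of 49. In the double mutants it left 1 in place of 46, at 1.5 dpf 2 in place of 65 and in tet2-/- 10 in place of 18. Against tet2-/- the double mutants had 9 in place of 62, against tet3-/- 55 in place of 41, and the interaction 66 in place of 54. For the members compared, the changes that turned with this covariate were, for tet3-/-, -0.43 for mrps21, -0.18 for mrps27 and -0.60 for mrpl1. For the double mutants they were -0.019 for mrpl9, -0.013 for mrpl44 and -0.45 for mrps21, and at 1.5 dpf -0.20 for mrpl46, -0.84 for mrps30 and -0.92 for mrpl1. In the interaction mrps21 came to 0.061. Thinned reads gave -0.090 for mrps14 in tet2-/-, and quantile normalisation 0.0060 for mrpl14 at 1.5 dpf. Over the fits without 1 replicate, the change in tet2-/- ran from -0.062 to 0.28 for mrps14 and from -0.026 to 0.23 for mrpl24. At 1.5 dpf it ran from -0.24 to 0.091 for mrpl14 and from -0.24 to 0.0011 for mrpl51. For the double mutants against tet2-/- it ran from -0.37 to 0.0090 for mrps7 and from -0.46 to 0.32 for mrpl1, and in the interaction from -0.75 to 0.061 for mrps21.

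The labels do not say whether a replicate number joins libraries of different groups, and correlations cannot show that none were joined. Same-numbered libraries of different groups had correlations of their deviations from -0.29 to 0.19, with 6 of 30 over 0.1, and 4 of 15 libraries matched best with their own number. With a replicate block, the count at 1.5 dpf was 0 in place of 1, and the block changed no other count of members.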
